A study of Mus musculus with 2 samples.

Results

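Noncoding genes whose introns carry small nucleolar RNAs (snoRNAs) were described in 2 polyA-selected RNA-seq libraries of mouse bone marrow-derived macrophages, phagocytes grown in culture from marrow precursors. The genes were taken from a list of 8 names, Gas5, Snhg1, Snhg3, Snhg5, Snhg6, Snhg8, Snhg12 and Snhg15, of 55536 annotated genes in the deposited gene tables, and each matched 1 gene. The list uses no measured value of these libraries. Both libraries belong to a single group of C57BL/6J cells, taken after a first exposure to lipid A at 100 ng/ml for 12 h, a washout of 12 h, and a second exposure at 100 ng/ml for 120 min. Lipid A is the part of bacterial lipopolysaccharide that macrophages sense. Fields of the labels differ on the agent, since the experiment's description names lipid A and other fields name lipoprotein A, and the description was followed. Age and sex were not collected, per the labels. The labels number the libraries as biological replicates 1 and 2 but give both the same donor identifier, and nothing says that they came from separate animals. A test between them therefore asks only whether these samples differ by more than counting error, and such a difference may be technical. No condition was compared with another because the samples form 1 group.

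A snoRNA host gene is transcribed as a long precursor, and splicing frees the introns from which exonucleases trim the mature snoRNAs. Box C/D snoRNAs guide ribose methylation of ribosomal and spliceosomal RNA, and box H/ACA snoRNAs guide pseudouridylation, each within a particle of 4 core proteins. The spliced exons of a noncoding host are exported, meet ribosomes through short reading frames and are commonly removed by nonsense-mediated decay. Many hosts start transcription at a run of pyrimidines, the terminal oligopyrimidine feature of ribosomal protein genes, which places their translation under growth control. PolyA-selected libraries read the spliced host RNA and not the intronic snoRNAs, which have no poly(A) tail.

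In the GENCODE M21 annotation the 8 genes held 28 snoRNA loci on their own strand, between 60 and 205 bases long. Gas5 held 9 of them, Snhg1 held 8 and Snhg12 held 4. Snhg3 and Snhg5 held 2 each, and Snhg6, Snhg8 and Snhg15 held 1 each. The 20 loci under 110 bases all had the letters CTGA, those of a box D, within their last 15 bases, and 17 of them had TGATGA, which overlaps the core of a box C, within their first 25 bases. Of the 8 loci of 110 bases or more, 6 had ACA within their last 8 bases. The exceptions were Snord22 of Snhg1, a long box C/D RNA by name, and Snora44 of Snhg12. Over 1507 annotated snoRNA transcripts the shares with these letters in the same windows were 31.4% for CTGA, 21.8% for TGATGA and 46.8% for ACA. All letters were searched on the RNA strand only, and a match is a description of the sequence. By these letters and the names, Gas5, Snhg1, Snhg5 and Snhg6 carried box C/D RNAs, Snhg3, Snhg8 and Snhg15 carried box H/ACA RNAs, and Snhg12 carried both kinds.

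The following sequences show each kind of cargo, printed 5′ to 3′ as DNA letters from the GENCODE M21 transcripts (build GRCm38), with the box C letters, the box D letters or the terminal ACA in capitals where the search found them in those windows. These examples were chosen after the annotation and the values were seen, since by TPM the hosted snoRNAs tie at 0 outside Snhg3.
Snord47 in Gas5 (chr1:161038082-161038158, plus strand): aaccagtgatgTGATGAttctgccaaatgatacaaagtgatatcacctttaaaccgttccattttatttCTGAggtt
Snord22 in Snhg1 (chr19:8725866-8725991, plus strand): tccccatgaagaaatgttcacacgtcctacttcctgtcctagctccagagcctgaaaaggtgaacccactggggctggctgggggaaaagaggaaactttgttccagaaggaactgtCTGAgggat
Snord50a in Snhg5 (chr9:88521529-88521600, minus strand): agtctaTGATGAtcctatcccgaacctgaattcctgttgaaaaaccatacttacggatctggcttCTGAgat
Snord50b in Snhg5 (chr9:88521797-88521868, minus strand): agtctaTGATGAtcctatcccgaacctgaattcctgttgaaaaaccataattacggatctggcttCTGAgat
Snord87 in Snhg6 (chr1:9942463-9942549, minus strand): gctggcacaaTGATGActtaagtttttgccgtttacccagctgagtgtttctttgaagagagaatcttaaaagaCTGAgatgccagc
Snord99 in Snhg12 (chr4:132310691-132310764, plus strand): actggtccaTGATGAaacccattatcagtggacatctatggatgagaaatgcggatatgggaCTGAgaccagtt
Snora61 in Snhg12 (chr4:132310240-132310369, plus strand): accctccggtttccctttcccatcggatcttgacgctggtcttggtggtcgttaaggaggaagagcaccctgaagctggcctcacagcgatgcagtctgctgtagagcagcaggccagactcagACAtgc
Snora24 in Snhg8 (chr3:123507937-123508066, minus strand): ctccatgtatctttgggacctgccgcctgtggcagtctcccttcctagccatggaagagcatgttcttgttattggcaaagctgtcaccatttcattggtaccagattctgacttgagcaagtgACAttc
Snora9 in Snhg15 (chr11:6528033-6528165, minus strand): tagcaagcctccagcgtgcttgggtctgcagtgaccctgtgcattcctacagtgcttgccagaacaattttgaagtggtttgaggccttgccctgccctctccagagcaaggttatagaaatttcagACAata
The pair in Snhg5 has 72 bases each and differs at a single place, C50A, counted from 1 at the 5′ end with the Snord50a base first. Box D and box C sit at opposite ends of each of these short RNAs.

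Snhg3 carries the related Snora73a and Snora73b, the longest cargo of the 8 genes, which belong to the snoRNA needed for cleavage of the ribosomal RNA precursor.
Snora73a in Snhg3 (chr4:132352775-132352979, minus strand): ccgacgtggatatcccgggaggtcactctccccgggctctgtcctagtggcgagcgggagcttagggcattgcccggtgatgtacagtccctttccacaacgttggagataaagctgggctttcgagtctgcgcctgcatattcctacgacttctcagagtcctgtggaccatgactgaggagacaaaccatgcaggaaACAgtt
Snora73b in Snhg3 (chr4:132352322-132352526, minus strand): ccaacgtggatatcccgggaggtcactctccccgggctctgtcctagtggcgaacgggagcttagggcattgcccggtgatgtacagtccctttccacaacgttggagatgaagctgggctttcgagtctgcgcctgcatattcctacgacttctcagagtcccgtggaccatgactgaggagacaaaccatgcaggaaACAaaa
They share 198 of 205 positions without gaps. With the Snora73a base first and positions counted from 1 at the 5′ end, the differences are G3A, G54A, A111G, T164C, G203A, T204A and T205A, so that 3 of the 7 fall after the terminal ACA. Reads from copies this alike cannot be assigned to one of them with certainty.

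Exons and cargo of these genes were arranged in a common layout. All 28 loci lay wholly within introns of the leading transcript of their host, the annotated transcript with the highest share of the gene's level in replicate 1, and none in its exons. No intron held more than 1 locus, so that 28 of the 38 introns in the 8 leading transcripts carried a snoRNA. Gas5 had cargo in 9 of 11 introns and Snhg1 in 8 of 9. Every intron was occupied in Snhg3, with 2, and in Snhg12, with 4. Snhg5 had cargo in 2 of 5 introns, Snhg6 in 1 of 3, and Snhg8 and Snhg15 in 1 of 2 each.

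The distance from the snoRNA's last base to the next exon was short and fell in a narrow range for most loci. Its median was 75.5 bases over the 28 loci, with 23 between 50 and 100 bases and a full range of 65 to 1595. Loci under 110 bases had a median of 73.5 bases and longer ones 79.5. The 5 loci outside the window of 50 to 100 bases were Gm26224 and Snord80 in Gas5, at 278 and 313 bases, Gm23246 in Snhg1, at 121 bases, Snora16a in Snhg12, at 237 bases, and Snora9 in Snhg15, at 1595 bases. On the other side, the distance from the preceding exon had a median of 56.5 bases.

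**Figure D1:**
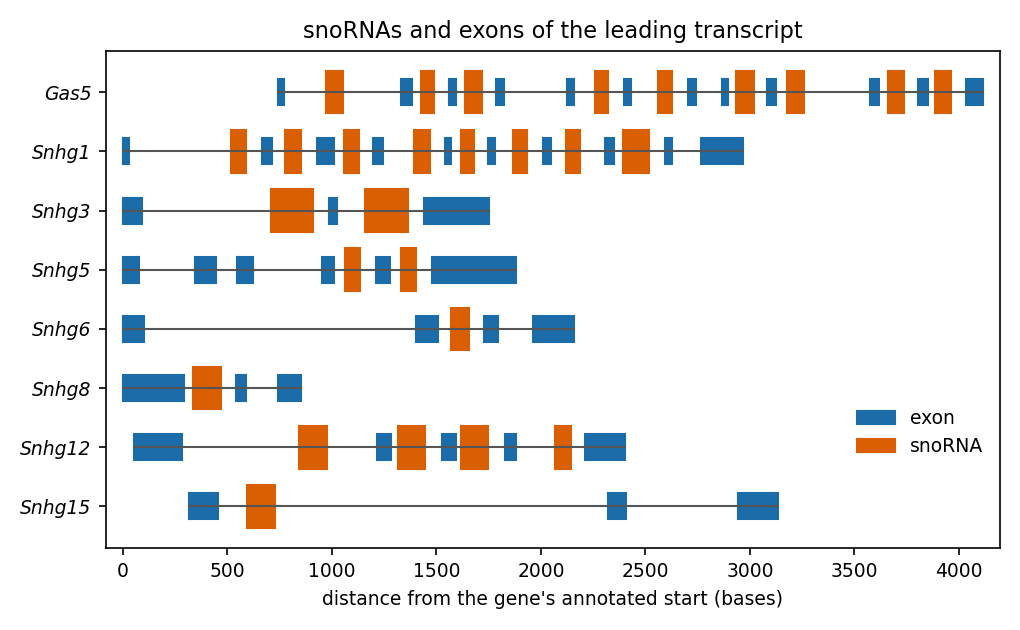
Exons of the leading transcript (blue) and snoRNA loci (orange) of each host gene, plotted by distance in bases from the annotated start of the gene in the direction of transcription. All 28 snoRNA loci fall between exons, and no intron holds more than 1.

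The starts of the genes were read for pyrimidine runs. RefSeq promoter entries (assembly GRCm38.p6) matched 7 of the 8 genes with 8 windows, Gas5 having 2, and Snhg6 had no entry. The windows below span 40 bases before and 20 from the start, 5′ to 3′, with the longest C or T run of at least 4 within the first 20 transcribed bases in capitals, and TATAAA before the start in capitals.
Gas5, the downstream start (chr1:161035126-161035185, plus strand): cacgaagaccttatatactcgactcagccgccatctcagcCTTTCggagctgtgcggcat
Snhg12 (chr4:132308638-132308697, plus strand): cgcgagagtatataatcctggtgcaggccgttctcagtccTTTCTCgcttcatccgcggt
Snhg8 (chr3:123508317-123508376, minus strand): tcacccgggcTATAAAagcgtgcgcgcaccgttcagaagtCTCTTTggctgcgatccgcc
Snhg1 (chr19:8723447-8723506, plus strand): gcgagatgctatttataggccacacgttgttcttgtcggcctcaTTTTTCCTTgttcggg
Snhg5 (chr9:88522878-88522937, minus strand): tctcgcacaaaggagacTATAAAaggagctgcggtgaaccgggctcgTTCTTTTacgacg
Snhg3 (chr4:132353667-132353726, minus strand): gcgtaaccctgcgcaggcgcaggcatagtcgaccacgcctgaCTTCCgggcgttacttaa
Snhg15 (chr11:6528741-6528800, minus strand): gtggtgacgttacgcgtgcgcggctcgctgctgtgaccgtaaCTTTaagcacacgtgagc
A C or T run of at least 5 within the first 20 transcribed bases was present in 6 of the 8 windows, against 32.8% of 32851 windows in the table. A run of at least 4 that began at the start base itself was present in 3, those of the downstream Gas5 start, Snhg12 and Snhg8, against 6.86% of windows. The upstream Gas5 window, not printed, had no run of more than 3.

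Of the 13 transcripts named below, 3 start in GENCODE at a RefSeq start of their gene (Snhg3-204, Snhg12-206 and Snhg15-204) and the other 10 at another base. The first 30 bases of all 13 follow, 5′ to 3′, with the longest C or T run within the first 20 bases in capitals where it has at least 4 bases.
Gas5-210: gagggcgtgtgaggggcggggtttaagtgg
Gas5-224: agCCTTTCggagctgtgcggcattctgagc
Snhg1-211: gTTCTTgtcggcctcatttttccttgttcg
Snhg3-204: gaCTTCCgggcgttacttaaggtataaata
Snhg5-202: aaaggagactataaaaggagctgcggtgaa
Snhg5-201: TTCTTTTacgacggagcctaagatattctt
Snhg5-204: CTTTTacgacggagcctaagatattctttg
Snhg6-203: CTTTCTCggcagcgccgtagagcgcgagca
Snhg6-204: TTTCTCggcagcgccgtagagcgcgagcag
Snhg8-201: CCCTCgcgcgcaggctcttgggagagcgtc
Snhg12-206: TTTCTCgcttcatccgcggtccctgtctgt
Snhg15-204: aaCTTTaagcacacgtgagcgtcctcagct
Snhg15-201: gttcggaggggctagaactgggtgatacgc
A run of at least 4 began at the first base in 6 of the 13 and lay within the first 20 bases in 10. Gas5-210, Snhg5-202 and Snhg15-201 had none, and the last 2 lead their genes in replicate 1. Both Snhg6 transcripts open with the pyrimidine run, at starts 1 base apart. The run in Gas5-224 follows its first 2 bases. In the full RefSeq window of 250 bases before to 50 bases after each start, read on both strands, TATAAA, the letters of a TATA box, was found for Snhg1, Snhg3, Snhg5 and Snhg8, against 13.6% of all windows. Within the 40 bases before the start, on the strand of the gene, it was found only for Snhg5 and Snhg8. In Snhg3-204, printed above, these letters lie after the start. CCGGAA, the core of ETS factor sites, was found for Snhg3 and Snhg5, against 14.9%. CACGTG, an E-box, was found for Snhg15, against 7.15%. The palindromic motifs of NRF1 and ZBTB33, each 10 bases long, were found for none of the 7 genes, against 0.971% and 0.466% of all windows.

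Levels are given as TPM, abundance per unit of transcript length within a fixed total, so that genes can be compared with each other. All 8 genes reached 1 TPM in both libraries, a level reached by 18.8% of annotated genes and by 2.67% of 13374 annotated long noncoding genes. At 10 TPM in both libraries there were 5 of 8, against 11.1% of all annotated genes and 0.456% of long noncoding genes. The median over the 8 genes was 19.5 TPM, beside 3.20 TPM over the 357 long noncoding genes and 18.2 TPM over protein-coding genes that reached 1 TPM in both. Intervals given with each level are the bounds deposited with the tables, whose credibility level is not given in the sources used here.

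Gas5 (growth arrest-specific transcript, chr1:161034422-161038539, plus strand) had the highest level. It stood at 126 TPM in replicate 1 and 76.0 TPM in replicate 2, a mean of 101 ± 35.3 TPM (SD, n = 2), with deposited intervals of 117 to 134 and 69.8 to 84.5 TPM. These values rested on 1067 and 464 reads. Gas5 ranked 10th among long noncoding genes and 1383rd among all annotated genes by mean TPM, and it alone made up 44.3% and 45.3% of the summed TPM of the 8 genes. Its RNA is known to accumulate in cells whose growth or translation is halted.

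Among the other box C/D hosts, Snhg6 (chr1:9941959-9944118, minus strand) stood at 41.0 and 22.6 TPM, a mean of 31.8 ± 13.0 TPM (SD, n = 2), on 241 and 92 reads. Snhg1, the host of Snord22 (chr19:8723475-8726443, plus strand), stood at 15.3 and 7.72 TPM, a mean of 11.5 ± 5.37 TPM (SD, n = 2), on 182 and 64 reads. The deposited interval of Snhg1 in replicate 2 ran from 7.79 to 13.6 TPM, so that the deposited level lay just below it, whereas in replicate 1 the level lay inside 14.1 to 20.7 TPM. Snhg5 (chr9:88521050-88522929, minus strand) was the lowest of the 8, at 5.08 and 4.40 TPM, a mean of 4.74 ± 0.481 TPM (SD, n = 2), on 98 and 58 reads. Gas5 and Snhg5, which both carry box C/D RNAs only, thus marked the top and the bottom of the range.

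The box H/ACA hosts lay between them. Snhg3 (chr4:132348014-132353686, minus strand) stood at 35.8 and 21.1 TPM, a mean of 28.5 ± 10.4 TPM (SD, n = 2), on 185.65 and 75.68 estimated reads. Snhg8 (chr3:123507552-123508404, minus strand), the gene with the shortest span at 853 bases, stood at 32.2 and 12.3 TPM, a mean of 22.2 ± 14.0 TPM (SD, n = 2), on 194 and 52 reads. Snhg15 (chr11:6525591-6528760, minus strand) stood at 8.35 and 10.3 TPM, a mean of 9.30 ± 1.35 TPM (SD, n = 2), on 58 and 39 reads. It was the single gene of the 8 with the higher TPM in replicate 2, though its deposited intervals overlap (6.32 to 11.0 and 7.16 to 13.8 TPM). A second deposited quantification, described below, gave Snhg15 8.60 and 8.36 TPM. The mixed host Snhg12 (chr4:132308623-132311024, plus strand), on the same chromosome as Snhg3, stood at 20.4 and 13.3 TPM, a mean of 16.8 ± 5.01 TPM (SD, n = 2), on 219 and 98 reads.

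By mean TPM the order was Gas5, Snhg6, Snhg3, Snhg8, Snhg12, Snhg1, Snhg15 and Snhg5. The span between the 2 libraries did not overlap between Gas5 and Snhg6, nor between Snhg15 and Snhg5. Every other pair of neighbours in the order overlapped in this span, which sets values of different libraries against each other. Within each library Snhg6 stood above Snhg3, Snhg3 above Snhg8 and Snhg12 above Snhg1. Among neighbours, only Gas5 and Snhg6 had deposited intervals apart in both libraries. Those of Snhg15 and Snhg5 overlapped in replicate 1. In replicate 2 Snhg12 stood above Snhg8, and Snhg15 above Snhg1. The 8 genes kept their places by mean FPKM and by a second deposited quantification made directly from the reads, whose TPM was 0.779 to 1.03 times that of the gene table. All 8 together held 2245 reads in replicate 1, or 0.00495% of 45341960 counts over annotated genes (exact 95% binomial interval 0.00475 to 0.00516), and 943 reads in replicate 2, or 0.00294% of 32087664 (0.00275 to 0.00313). Copies made by amplification are not independent molecules, so such intervals cover counting error alone.

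**Figure D2:**
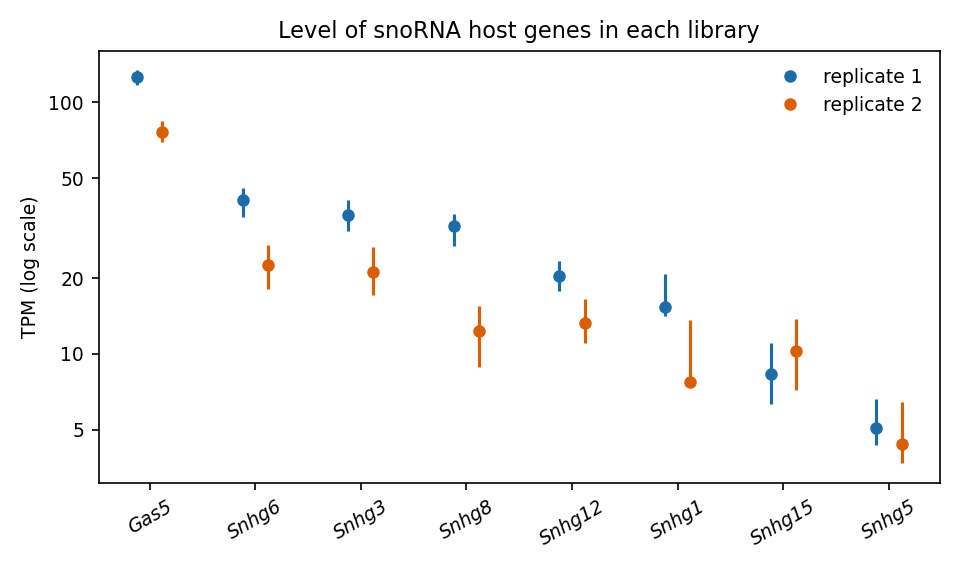
TPM of each host gene on a log axis, with a point for each library and a vertical line for the deposited interval of that library. Gas5 stands apart at 126 and 76.0 TPM, and Snhg15 is the one gene whose point for replicate 2 is the higher, with overlapping intervals.

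Annotated overlaps with 4 other genes touch these loci, and whether counting used strand is not given in the sources used here. Snhg3 shares 5592 of its 5673 bases with Rcc1, a protein-coding gene of the same strand that stood at 6.95 and 3.14 TPM, and 1611 bases with Gm17300 on the opposite strand, at 0.480 and 0.130 TPM. Snhg3 was also the single gene of the 8 with a deposited posterior SD of its reads above 0, at 1.23 and 0.66 reads. Gas5 shares 428 bases with Zbtb37 on the opposite strand, at 2.47 and 1.93 TPM. Snhg6 shares 127 bases with Mcmdc2 on the opposite strand, at 0.0300 TPM in both. No other gene overlapped Snhg1, Snhg5, Snhg8, Snhg12 or Snhg15 outside their own snoRNAs.

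The snoRNAs have rows of their own in the gene tables, 30 rows for the 28 loci, and these rows do not measure snoRNA levels. The effective length, the number of positions a fragment of the library's size can start at, was 0 for 28 of the 30 rows in both libraries, so that no level could be assigned. Over the 1507 snoRNA rows of the annotation 1381 were in this state and 15 held any read. The exceptions among the hosted RNAs were Snora73a and Snora73b, printed above, each with an effective length of 12.2 bases in replicate 1 and 9.33 in replicate 2. Snora73a had 1.75 and 2.96 estimated reads, listed as 4.56 and 15 TPM, and Snora73b had 1.81 and 0 reads, listed as 4.70 and 0 TPM. These TPM values rest on at most 3 reads each, and the second quantification gave 0.684 and 2.73 TPM for Snora73a and 0.684 and 0 TPM for Snora73b.

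Transcripts with no snoRNA in an exon made up most of the level, in both libraries, of each host that has an annotated form with one. Snhg3 and Snhg6 have no such form, so that their share was fixed by the annotation. In Snhg5 forms with a snoRNA in an exon reached 45.0% in replicate 2. Of 76 annotated transcripts of the 8 genes, 13 reached 1 TPM in both libraries. The leading transcript was the same in both libraries for 7 genes and differed for Snhg5. Shares are the deposited percent of the gene's abundance in a transcript, estimated from short fragments that often fit several transcripts.

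Snhg12-206, of 5 exons, took 94.6% and 95.6% of its gene. Snhg8-201, of 3 exons, took 90.6% and 85.0%, and Snhg3-204, of 3 exons, took 89.6% and 100.0%. A single spliced form thus dominated these 3 genes in both libraries. Snhg6-203 took 77.9% and 84.2%, and Snhg6-204, which starts 1 base downstream and is shorter, took 20.6% and 15.8%. Snhg1-211, of 10 exons, took 75.7% and 76.5%.

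Gas5 was split between 2 spliced forms with different starts. Gas5-224, of 12 exons and with the pyrimidine run printed above, took 68.4% and 59.0% on 605.09 and 219.66 estimated reads. Gas5-210, of 11 exons and without that run, took 21.3% and 28.5% on 232.24 and 130.69 reads. Both leave all 9 snoRNAs in introns, and they differ in their first bases.

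In the 2 lowest genes the shares differed most between the libraries. Snhg15-201 took 54.0% and 83.1% on 20.19 and 26.32 estimated reads, and Snhg15-204 took 34.8% and 10.6% on 28.27 and 7.34 reads. Snhg15-201 is the shorter form, and the deposited mean length of Snhg15 was 496.6 bases in replicate 1 and 446.7 in replicate 2. In CPM, counts scaled to the library total with no correction for length, the gene stood at 1.28 and 1.22, the reverse of its order in TPM. Its log2 ratio of reads, also without a length correction, was 0.01 with TMM scaling and -0.07 with library totals. The order thus also depended on the library scaling, and what turned it was not tested. In Snhg5, Snhg5-202 took 50.7% and 13.1%, Snhg5-201 took 35.9% and 41.9%, and Snhg5-204, a retained-intron form that holds a snoRNA in an exon, took 6.20% and 35.9%. The reads behind Snhg5-204 were 5.91 and 20.41, and those behind Snhg5-202 were 40.13 and 6.2. No test was made of these shares.

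RNA that still contains a snoRNA, either as a retained intron or as a long exon, was estimated next. It made up 17.9% and 18.4% of Snhg1 by TPM and 6.82% and 10.1% of Gas5. By estimated reads, which weight long forms more, the shares were 34.5% and 29.3% for Snhg1, on 62.7 and 18.7 reads, and 17.5% and 20.9% for Gas5, on 186 and 96.8 reads. The shares of reads were 11.5% and 8.65% for Snhg8 and 9.54% and 8.43% for Snhg12. For Snhg15 they were 1.78% and 11.1%, and for Snhg5 6.03% and 40.2%. Gas5 and Snhg1 also have the most annotated transcripts with a snoRNA in an exon, 16 and 11. By TPM the share in Snhg5 was 6.20% in replicate 1 and 45.0% in replicate 2, on 5.91 and 23.3 reads. It was 4.49% and 3.43% in Snhg8, 3.07% and 4.38% in Snhg12 and 1.00% and 4.95% in Snhg15. Snhg3 and Snhg6 have no annotated transcript with a snoRNA in an exon. The second quantification gave 6.49% and 10.1% for Gas5, 17.2% and 15.3% for Snhg1 and 4.79% and 41.2% for Snhg5.

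**Figure D3:**
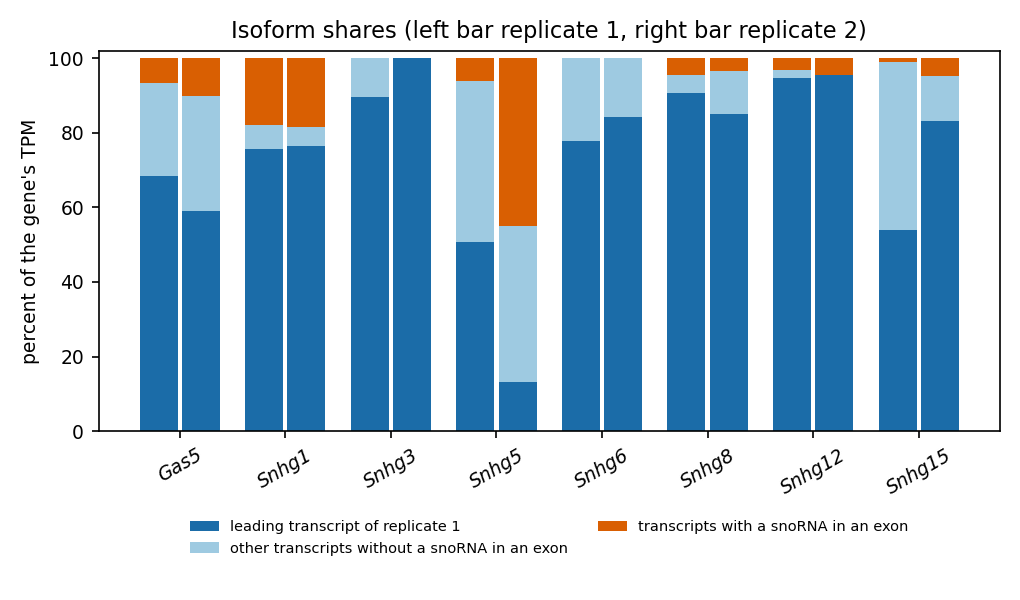
Percent of each gene's TPM in the leading transcript of replicate 1 (dark blue), in other transcripts without a snoRNA (light blue) and in transcripts with a snoRNA in an exon (orange), with replicate 1 as the left bar and replicate 2 as the right. Snhg5 shows the widest shift between libraries, from 6.20% to 45.0% in the orange part.

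Reads of the 8 genes were compared between the libraries. An exact two-sided binomial test compared the rounded reads of the 2 libraries gene by gene, with library sizes scaled by TMM and Benjamini-Hochberg adjustment over 12552 genes. It covers counting error only and compares these 2 libraries, not conditions. Of the 8 genes 6 were higher in replicate 1 at an adjusted p under 0.05 and none was higher in replicate 2. Of all tested genes 32.5% and 32.7% were called in these directions, and 65.2% in either. The median log2 ratio of replicate 2 to replicate 1 was -0.67 over the 8 genes and -0.02 over all tested genes.

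Snhg8 had the widest ratio, 2.51-fold higher in replicate 1 (exact 95% interval 1.84 to 3.48, adjusted p = 8.15e-10), and it was the single gene of the 8 past 2-fold, where 11.3% of tested genes were. Snhg1 was 1.91-fold higher in replicate 1 (1.43 to 2.58, adjusted p = 8.39e-06 by the exact test). Snhg6 was 1.76-fold higher (1.38 to 2.27, adjusted p = 4.55e-06 by the exact test). These 3 genes lie on different chromosomes and include hosts of both kinds of snoRNA. Snhg3 was 1.65-fold higher in replicate 1 (1.25 to 2.18, adjusted p = 3.96e-04 by the exact test). Gas5, with the most reads, was 1.55-fold higher (1.39 to 1.73, adjusted p = 4.02e-15 by the exact test). Snhg12 was 1.5-fold higher (1.18 to 1.93, adjusted p = 0.00137 by the exact test). The intervals of Snhg3, Gas5 and Snhg12 overlap one another, and that of Snhg8 lies above that of Gas5.

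Snhg5 and Snhg15 did not pass. The ratio of replicate 1 to replicate 2 was 1.14 for Snhg5 (0.813 to 1.60, adjusted p = 0.533 by the exact test) and 1.00 for Snhg15 (0.655 to 1.54, adjusted p = 1.00 by the exact test). Their 39 to 98 reads leave intervals that include the 1.5-fold ratio of Snhg12, so a difference of that size is not excluded for either gene.

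The ratio was also read among short genes as a group. Deposited mean lengths of the 8 genes ran from 437.0 to 899.2 bases, and 7 of them were under 800 bases. Among the 767 tested genes of at most 800 bases, a group defined after values were seen, the median log2 ratio was -0.48 and 72.2% were higher in replicate 1, with 52.9% called in that direction and 32.6% past 2-fold. With libraries scaled on these short genes instead, 2 of the 8 genes were called, both higher in replicate 1, where 9.72% of all tested genes were called in that direction and 73.2% in either. They were Snhg1 at a log2 ratio of -0.45 (adjusted p = 0.0405 by the exact binomial test) and Snhg8 at -0.84 (adjusted p = 1.67e-04 by the same exact test). The calls of Gas5, Snhg3, Snhg6 and Snhg12 ended under that scaling, at adjusted p of 0.0792, 0.282, 0.0807 and 0.602, and Snhg5 turned to 0.30 with an adjusted p of 0.278, all by the exact binomial test. It also moved the median of all tested genes to 0.46. Among tested genes within the read range of the 8, without regard to length, the median was -0.11, and among 873 tested long noncoding genes it was -0.03.

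**Figure D4:**
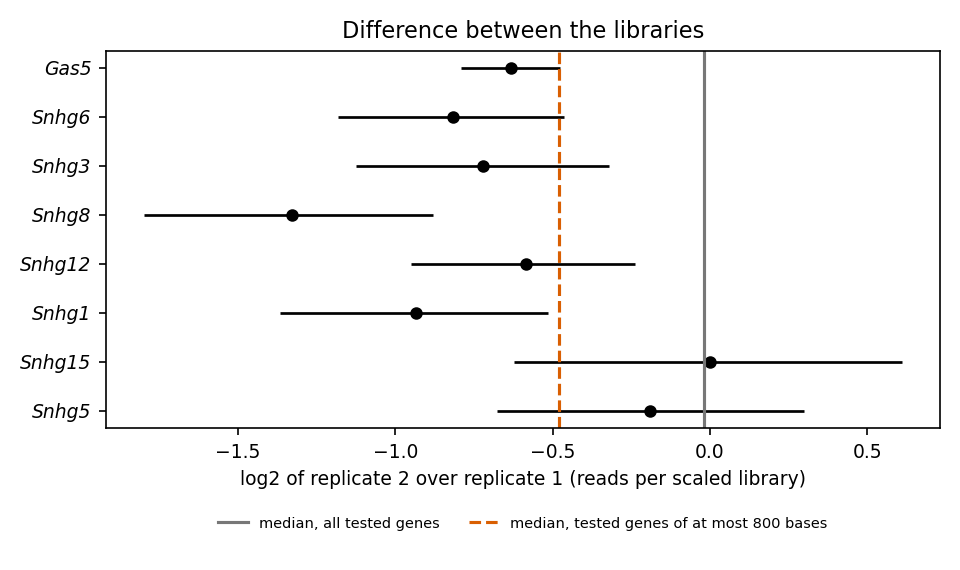
Log2 ratio of replicate 2 to replicate 1 of each host gene with its exact 95% interval, beside the median of all tested genes (solid line, -0.02) and that of tested genes of at most 800 bases (dashed line, -0.48). The genes other than Snhg5 and Snhg15 lie to the left of the dashed line, and the intervals of Snhg1 and Snhg8 do not reach it.

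Other properties also differed between the libraries. Mitochondrial genes took 1.06% of counts in replicate 1 and 2.17% in replicate 2. Of 4 neutrophil markers 1 reached 1 TPM in both libraries and Ly6g had 0 reads, with a summed level of 34.2 TPM in replicate 1 and 4.22 TPM in replicate 2, led by S100a8 at 25.8 and 3.72 TPM. Of 2 endothelial markers 1 reached 1 TPM in both, with sums of 5.06 and 15.3 TPM. The 8 macrophage markers all reached 10 TPM, with sums of 16287 and 18004 TPM, led by Lyz2, and the markers of T cells, B cells, red cells and stromal cells were all under 1 TPM. The part of length, mitochondrial share or other cells in the ratios of the host genes was not tested. In bulk RNA fewer cells of a type and less RNA per cell cannot be told apart.

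Further noncoding hosts were mostly low. Of 15 listed, 12 were measured, 5 reached 1 TPM in both libraries and 6 were under 1 TPM in both, among them Meg3, Rian, Snhg18 and Snhg9 with 0 reads in both (a floor of 3 reads allows up to 0.0662 and 0.0935 CPM). Zfas1, a box C/D host next to Znfx1, was the one past 10 TPM, at 73.1 and 47.2 TPM, a mean of 60.2 ± 18.3 TPM (SD, n = 2), between Gas5 and Snhg6. It was 1.49-fold higher in replicate 1 (adjusted p = 2.72e-13 by the exact binomial test), the single call among 5 tested. In that direction 32.5% of all tested genes were called. Epb41l4aos stood at 8.12 and 4.94 TPM and Snhg20 at 3.47 and 2.61 TPM.

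The listed protein-coding hosts, many of them ribosomal protein genes, stood higher by median. All 37 listed reached 1 TPM and 34 reached 10 TPM, with a median of 295 TPM, beside 19.5 TPM over the 8 noncoding hosts. Their mean levels ran from 4.89 to 2337 TPM, and Nfatc3, Ppan, Rcc1 and Dkc1 lay below 19.5 TPM. Hspa8, a chaperone gene, led at 1723 and 2951 TPM, followed by Tpt1 at 1269.8 and 1442 TPM and the ribosomal protein gene Rpl10 at 1398 and 741 TPM, whose reads processed pseudogenes can share. The exact test called 19 of the 37 in favour of replicate 1 and 15 in favour of replicate 2 (median log2 ratio -0.16). Over all tested genes 32.5% and 32.7% were called in these directions.

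The proteins that turn an excised intron into a snoRNA particle were all present as RNA. All 8 core protein genes reached 1 TPM and 7 reached 10 TPM, and the exact test called 2 of them in favour of replicate 1 and 4 in favour of replicate 2 (median log2 ratio 0.10). The shares called over all tested genes were 32.5% and 32.7%. Snu13, which binds the box C/D fold, stood at 54.5 ± 1.22 TPM (SD, n = 2), Nhp2, its counterpart in box H/ACA particles, at 49.6 ± 2.93, and Fbl, the methyltransferase, at 41.0 ± 6.90. The pseudouridine synthase gene Dkc1, itself a host, was the one below 10 TPM, at 3.12 and 6.67 TPM (named after its value was seen). Of 13 assembly factors listed 12 were measured, all above 1 TPM and 6 above 10 TPM, and the exact test called 5 in favour of replicate 1 and 4 in favour of replicate 2 (median log2 ratio 0.04). Tgs1, the cap hypermethylase, led at 35.0 ± 1.34 TPM (SD, n = 2), followed by Pih1d1 at 28.3 ± 2.86 and Ruvbl1 at 17.9 ± 1.75, both of the chaperone complex that assembles these particles.

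Genes of the pathways that act on the spliced host RNA were measured too. All 20 nonsense-mediated decay factors reached 1 TPM and 15 reached 10 TPM, and the exact test called 9 in favour of replicate 1 and 6 in favour of replicate 2 (median log2 ratio -0.09). The shares called over all tested genes were 32.5% and 32.7%. They were led by Rnps1 at 74.4 ± 7.95 TPM (SD, n = 2) and Eif4a3 at 74.3 ± 25.4, which deposit at exon junctions, and the decay adaptor Pnrc2 at 62.3 ± 5.15. All 13 regulators of terminal oligopyrimidine RNA reached 1 TPM and 10 reached 10 TPM, and the exact test called 3 in favour of replicate 1 and 5 in favour of replicate 2 (median log2 ratio 0.06). The cap-binding Eif4e led at 80.5 ± 5.56 TPM (SD, n = 2), followed by Cnbp at 80.4 ± 9.19 and Larp1, which binds the capped pyrimidine run, at 76.0 ± 14.8. The median ratios of these 4 lists lay between -0.09 and 0.10, beside -0.67 for the 8 host genes. Their leading genes are longer than 800 bases, and no test of the lists was made.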

How the data were processed

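The 2 libraries of 1 group were analysed, made from RNA of 1 µg and sized at 250 to 400, per the labels. Per the deposited notes, values refer to mm10 with GENCODE M21, and the programs and strandedness were not given in the sources used here. Per the file headers, the deposited gene tables (81881 rows, 55536 annotated genes) give expected counts, TPM, FPKM and bounds of a credibility interval of TPM, a signal in TPM. The deposited transcript tables give each transcript's percent of its gene. Another deposited table gives estimated counts and TPM by transcript, made directly from the reads, and was summed to genes. Rows that name no annotated gene held 0.0788% and 0.0771% of expected counts and were left out, and the remaining totals were 45341960 and 32087664.

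Expected counts were rounded for an exact two-sided binomial test (SciPy 1.17.1) with TMM from edgeR 4.0.16, where the mean expected count was at least 10, adjusted by Benjamini-Hochberg and called under 0.05. Log2 ratios had a prior of 0.5 reads. Above 20000 reads the p was doubled from the smaller exact tail. Alternatives were DESeq2 1.42.0 size factors, totals, other filters, the second table and, chosen after seeing the data, scaling on genes of at most 800 bases. The text names all 8 genes, leading transcripts and those of at least 20% in either library, and the 3 highest genes of each list. The rule also took the 2 hosted snoRNAs of highest mean TPM in each host, which chose Snora73a and Snora73b in Snhg3 and gave a tie at 0 elsewhere, so the other snoRNAs named or printed were chosen after their values were seen. The genes, lists and thresholds were chosen with earlier results of these data known. Symbols not matched were Snhg16, Snhg4, Snhg7 and Nopchap1. Sequences came from GENCODE M21 transcripts and RefSeq promoters (GRCm38.p6).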

Additional observations from a re-analysis of the deposited data

How the results depend on the processing

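Detection of all 8 genes in both libraries held at 0.5 TPM, in the second quantification and without replicate 1 or replicate 2 (8 in each). At 5 TPM 7 genes were left, without Snhg5, and at 10 TPM 5. Leaving out each replicate moved the median level of the 8 genes, 19.5 TPM, between 12.8 and 26.3 TPM. With DESeq2 size factors, library totals, the second quantification, no count filter or a mean of at least 100 reads, the same 6 genes were called higher in replicate 1 by the exact binomial test, though the last filter left 6 of the 8 to test. In that order, 31.1%, 38.2%, 30.5%, 21.3% and 37.3% of all tested genes were called higher in replicate 1. In either direction 65.3%, 66.4%, 61.6%, 43.1% and 74.8% were called. Scaling on genes of at most 800 bases left 2 called, where 9.72% of all tested genes were called higher in replicate 1. Snhg15 changed sign to a log2 ratio of -0.07 with library totals and -0.09 in the second quantification, and Snhg5 to 0.30 when scaled on short genes. Of the 8 genes 1 was past 2-fold, against 11.3% of all tested genes. There were 5 at 1.5-fold, 0 at 3-fold, 2 with library totals and 0 when scaled on short genes. Shares of all tested genes at these other settings were not computed. Transcripts of at least 1 TPM in both libraries numbered 13, and 20 at 0.5 TPM. The cause of these changes was not tested, beyond the looser or stricter thresholds themselves. The 2 libraries limit every level to an SD of 2 values, and isoform shares of Snhg5 and Snhg15 rest on 39 to 98 reads a gene. No paired analysis was possible because the samples form 1 group.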
